A study of Homo sapiens with 15 samples.

Results

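The collagen family was taken as the protein-coding genes of GENCODE v44 whose symbol is COL, a number, A and a number, from COL1A1 to COL28A1. All 44 such genes were found by gene identifier among the 48777 genes of the deposited tables, of which 18894 are protein-coding. They fell into 11 fibrillar genes, 8 basement membrane genes and 25 others, the last being genes of beaded filaments, of collagens that decorate fibrils (FACIT), of short-chain networks, of anchoring fibrils and of collagens that span the cell membrane.

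The libraries were bulk RNA-seq of H1, an established line of human embryonic stem cells, taken on days 0, 4, 9, 11 and 20 of a protocol that drives the cells towards heart muscle. All of the 15 libraries are labelled as grown on wells coated with the laminins LN-521 and LN-221, and day 0 as undifferentiated cells in Nutristem medium. Differentiation used RPMI medium with B27 lacking insulin, to which the GSK3 inhibitor CHIR99021 and later the Wnt secretion inhibitor IWP2 were added, and from day 11 RPMI medium with the CTS B-27 supplement. The labels call the 3 libraries of each day biological replicates from separate wells, so the p-values below measure the spread between wells of a single line. By their titles, day 20 libraries 2 and 2_3 both carry plate number 2, and the tests count each as a separate replicate. The labels hold 2 protocols, by one of which CHIR99021 was given before day 4 and by the other from day 4 on, so whether the day 4 cells had met it is not settled here. The labels and the methods also differ on the third time point, day 9 in the former and day 7 in the latter. The study's results describe bulk RNA-seq of days 9 and 11, and the labelled day is used here. Medium and day cannot be told apart in any comparison. The deposited sample table lists LN-521 alone for day 0.

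Collagen chains wind around each other into triple helices that are assembled outside the cell. Fibrillar collagens pack side by side into the ropes that give connective tissue its strength, and types I and III, made mainly by fibroblasts, dominate the matrix of the heart. Type IV collagen instead builds the sheet-like network of basement membranes, where it lies beside laminin and, in the heart, wraps each muscle cell and vessel.

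The gene counts of a library summed to between 11990302 and 33469703. Levels are given as the deposited TPM, a measure of relative abundance that divides by gene length, and comparisons were made on the deposited counts. The summed TPM of 5 pluripotency markers lay between 4220 and 6124 on days 0 and 4 and between 58.9 and 104.8 on day 20, and that of 6 cardiomyocyte markers between 16.0 and 22.3 on day 0 and between 2953 and 14930 on day 20. Day 20 library 2_3 stood apart, with an RNA integrity number of 6.1 against 8.8 to 10 elsewhere. It held reads on 99.6% of 252 autosomal genes that no library of days 0 to 11 counted more than 2 times, at a median of 12 reads per kilobase of exon, and 5 collagen genes lay within 2 times and 17 within 4 times of that median. Day 20 library 6_1 held reads on 67.1% of these genes, at a median of 0.676 reads per kilobase, and the other 13 libraries on at most 18.7%. In day 0 library 3 and day 9 library 2 a gene with an implied length of 57 bases took 20.0% and 17.0% of all TPM, which lowers every other TPM value there, while it held at most 0.370% of the counts. In bulk RNA, fewer cells of a type and less RNA per cell cannot be told apart.

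The family as a whole took more of the deposited TPM from day 9 on than on days 0 and 4. The summed TPM of the 44 genes was 2240 ± 299 on day 0, 2653 ± 438 on day 4, 6176 ± 1483 on day 9, 9000 ± 1604 on day 11 and 14630 ± 13070 on day 20 (SD, n = 3 each). On day 20 the sum over all 44 genes was 9650, 4772 and 29460 TPM in libraries 2, 2_3 and 6_1, against 8335, 7836 and 10830 TPM in the day 11 libraries. Without library 6_1 the day 20 mean was 7211 TPM, below that of day 11. On day 20 the fibrillar sum was 5146 TPM in library 2, 2157 in library 2_3 and 24100 in library 6_1, so a single library set the mean and the SD of that day. Fibrillar genes held 23.5% ± 3.17 of all collagen TPM on day 0, 31.6% ± 6.20 on day 9, 47.6% ± 14.2 on day 11 and 60.1% ± 19.2 on day 20. The share of the 25 other genes went from 45.4% ± 3.73 on day 0 to 16.1% ± 5.44 on day 20, and the ranges of these days did not overlap. Basement membrane genes held 31.1% ± 5.70 on day 0 and 23.8% ± 14.5 on day 20, a difference smaller than the day 20 spread. These shares are descriptions without a test.

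**Figure D1:**
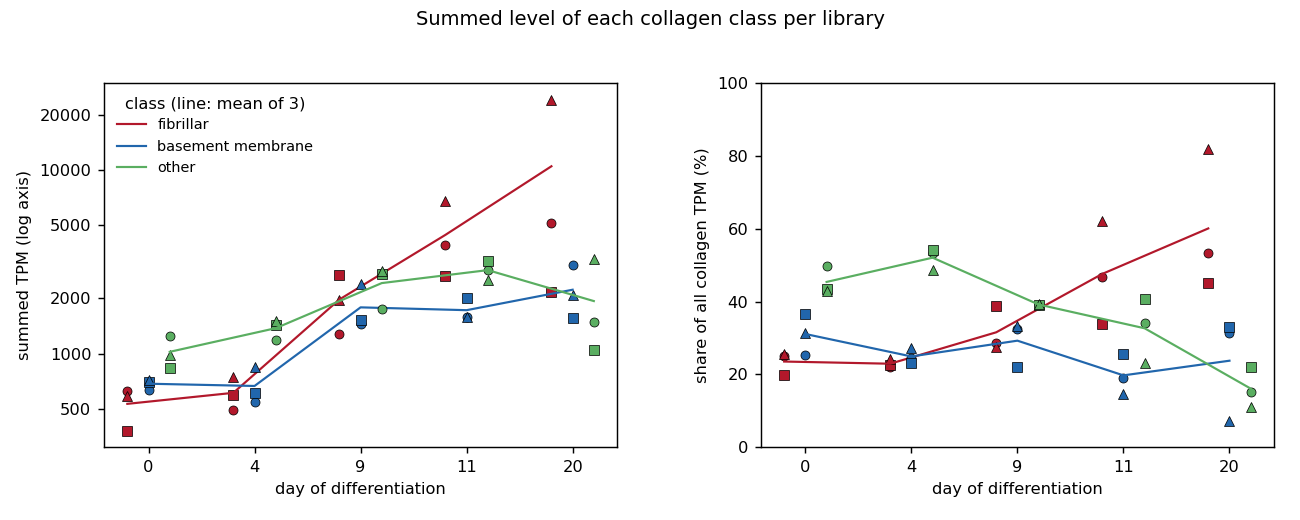
Summed TPM of each collagen class per library (left, log axis) and the class's share of all collagen TPM in percent (right) against day, with circles, squares and triangles for the 3 libraries of a day in the order of their labels and lines through the means. Fibrillar genes sum to between 380.6 and 626.5 TPM on day 0 and to between 2157 and 24100 TPM on day 20, where library 6_1 sets the mean, and their share reaches 81.8% in day 20 library 6_1.

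The leading collagen gene changed with the days. COL6A1, a chain of beaded filaments, held the largest part of collagen TPM in 2 of 3 libraries on day 0, in 3 of 3 on day 4 and in 2 of 3 on day 9, at 14.1% to 20.7%. COL3A1, the chain of type III collagen, led in 2 of 3 libraries on day 11 and in 3 of 3 on day 20, where it held 17.9%, 15.2% and 57.7%. Of the 44 genes, 28 had their highest mean on day 20, and 21 when library 2_3 was left out of the day 20 mean. The mean passed 100 TPM on at least 1 day for 20 genes and stayed under 10 TPM on every day for 9.

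**Figure D2:**
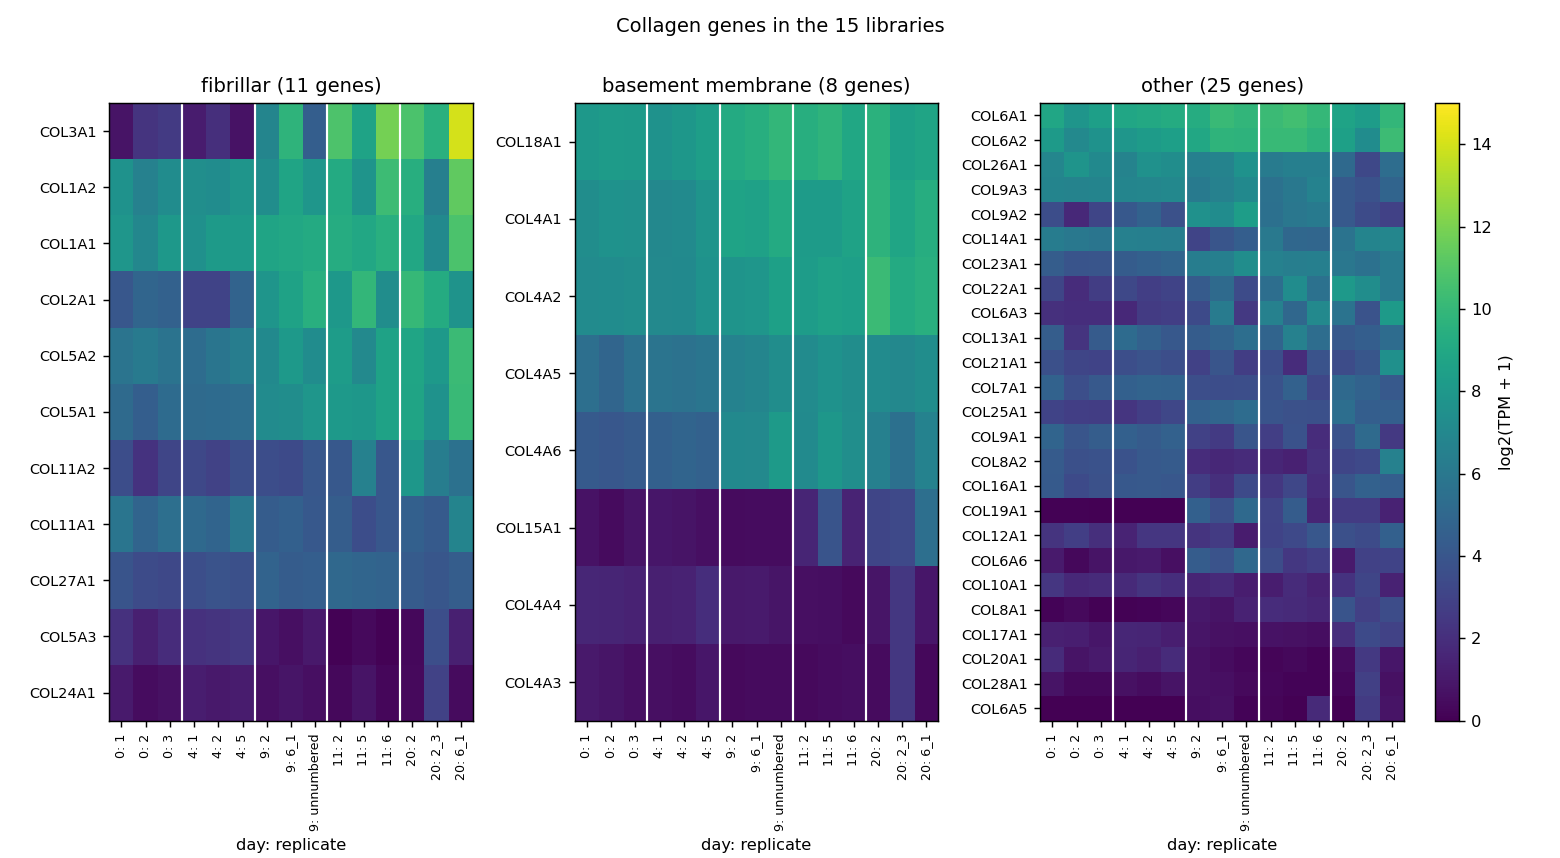
Heat map of log2(TPM + 1) for the 44 collagen genes (rows, by class and ordered by their mean over all libraries) in the 15 libraries (columns, named by day and replicate, with white lines between days). COL3A1 goes from at most 4.81 TPM on days 0 and 4 to 17006 TPM in day 20 library 6_1, COL19A1 is near 0 before day 9, and the faint genes at the bottom of each panel brighten in day 20 library 2_3.

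Each day was compared with the day before it, and day 20 with day 0, to ask when the collagen genes changed. From day 0 to day 4 no collagen gene of 41 tested passed the threshold, and no gene of the 20964 tested did (0% called) by edgeR's quasi-likelihood test or by DESeq2. At an unadjusted p under 0.05, 741 genes (3.53%) and 4 collagen genes differed, and edgeR without a filter on low counts called 64 genes and 0 collagen genes. From day 4 to day 9, 32 of 43 collagen genes passed, 20 higher and 12 lower on day 9, where 49.0% of all 21252 genes tested passed, 24.3% higher and 24.7% lower. All 32 moved the same way within each of the 3 sequencing lanes, each of which held 1 library of both days. The libraries of these days overlapped for none of the 32, so this had to hold and adds no check of the lanes. From day 9 to day 11, 0 of 44 were higher and 2 lower, where 2.39% of all genes passed, 1.39% higher and 1.00% lower. From day 11 to day 20, 1 of 43 was higher and 1 lower, where 1.55% passed, 1.12% higher and 0.435% lower. From day 0 to day 20, 19 of 43 were higher and 2 lower, where 27.4% passed, 16.1% higher and 11.3% lower. In a single test of any difference among the 5 days over all 15 libraries, 36 of 44 collagen genes passed, where 50.4% of 24767 genes did. The 8 that did not pass this test were COL1A1, COL4A3, COL7A1, COL9A1, COL10A1, COL11A1, COL13A1 and COL24A1. The libraries of the days compared did not overlap for 5 of 41 collagen genes from day 0 to day 4 (10.0% of all genes tested), 34 of 43 from day 4 to day 9 (60.0%) and 12 of 44 from day 9 to day 11 (24.1%). They did not overlap for 15 of 43 from day 11 to day 20 (22.4%) and 20 of 43 from day 0 to day 20 (46.7%). Without day 0 library 1, 2 or 3, the count of collagen genes higher on day 20 than on day 0 was 12, 8 or 8. The matching counts over all genes are not given here, so this drop cannot be read as particular to collagen genes.

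The day 4 to day 9 and day 0 to day 20 comparisons share no library. Of the 20 genes higher on day 9 than on day 4, 14 (70%) were also higher on day 20 than on day 0, and these were 73.7% of the 19. Over all genes, 1992 were shared between the 5162 and 3536 higher genes, which is 38.6% and 56.3% of these lists, and 1900 between the 5244 and 2491 lower genes, which is 36.2% and 76.3%. The 6 that passed only in the earlier comparison were COL1A1, COL6A1, COL6A2, COL9A2, COL18A1 and COL27A1, and the 5 that passed only in the later one were COL6A3, COL11A2, COL12A1, COL15A1 and COL17A1. None of the 12 genes lower on day 9 was among the 2 lower on day 20, and COL15A1 and COL17A1 were lower on day 9 than on day 4 but higher on day 20 than on day 0.

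Among the fibrillar genes, 6 of 11 rose and 3 of 11 fell from day 4 to day 9, where 24.3% of all genes tested rose and 24.7% fell. Their median log2 fold change was 0.90, against 0.01 over all genes tested. COL3A1 (chromosome 2, 188974373 to 189012746, plus strand, GRCh38) encodes the only chain of type III collagen, the fine fibres of blood vessels and heart. It measured 0.762, 3.76 and 4.81 TPM on day 0 in libraries 1, 2 and 3 and 1.24, 3.03 and 0.69 TPM on day 4 in libraries 1, 2 and 5. It measured 111, 848 and 21.6 TPM on day 9 in libraries 2, 6_1 and the unnumbered library, 1816, 423 and 3745 TPM on day 11 in libraries 2, 5 and 6, and 1726, 723 and 17006 TPM on day 20 in libraries 2, 2_3 and 6_1. The same order of libraries holds for every list of 3 values below. Every library of days 9, 11 and 20 lay above every library of days 0 and 4, and within days 9, 11 and 20 the highest library was 39.4, 8.84 and 23.5 times the lowest. In day 20 library 6_1 COL3A1 ranked 1 of all genes by TPM. The study's methods state that ribosomal and mitochondrial genes were removed, so this rank holds among the genes kept. The log2 fold change was 7.57 from day 4 to day 9 (SE 1.49, adjusted p = 0.00503, and 0.0569 without the filter on low counts) and 10.84 from day 0 to day 20 (SE 1.79, adjusted p = 0.00399). The other comparisons did not pass. Day 4 against day 0 gave -1.04 (SE 0.811, adjusted p = 0.885), and day 11 against day 9 gave 2.65 (SE 1.28, adjusted p = 0.356). Day 20 against day 11 gave 1.69 (SE 1.27, adjusted p = 0.566), and without day 20 library 6_1 the last value was -0.87. An exact two-sided permutation test of its log2 CPM gave p = 0.1 for day 9 against day 4 and for day 20 against day 0, the smallest value that 3 against 3 libraries allow. The lowest of the day 9 values, 21.6 TPM, came from the library with the lowest fibroblast and mesenchymal marker sum of that day, 115.8 TPM, and the highest, 848, from the library with the highest, 655.7 TPM. These sums rest on LUM (46.6, 535 and 8.28 TPM), and without it they were 84, 120.7 and 107.6 TPM, with the unnumbered library between the others. The part of cell makeup in these values was not tested.

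COL1A1 and COL1A2 encode the type I chains, which form the main fibres of scar, tendon and bone. COL1A1 measured 238, 120 and 253 TPM on day 0 and 181, 284 and 289 on day 4. COL1A1 then measured 427, 505 and 564 TPM on day 9, 615, 509 and 708 on day 11 and 518, 137 and 1705 on day 20. It rose from day 4 to day 9 (log2 fold change 1.01, SE 0.203, adjusted p = 0.00363), with the replicates of these days apart, and passed in no other comparison. COL1A2 measured 196, 94.1 and 159 TPM on day 0 and 171, 154 and 223 on day 4. COL1A2 then measured 163, 429 and 236 TPM on day 9, 577, 217 and 1269 on day 11 and 681, 89 and 2634 on day 20. Its day 4 and day 9 libraries overlapped, the log2 fold change was 0.59 (SE 0.298, adjusted p = 0.14), and without day 9 library 2 it was 0.84 with an adjusted p of 0.0295. On day 20 library 2_3 was below the day 0 median for both chains, while library 6_1 was the highest of all 15. Day 20 against day 0 gave a log2 fold change of 1.79 for COL1A1 (SE 0.876, adjusted p = 0.166) and 2.80 for COL1A2 (SE 1.07, adjusted p = 0.0857). Without library 2_3 these were 2.31 (adjusted p = 0.0165) and 3.36 (adjusted p = 0.00495), and both chains passed there. With it kept, COL1A2 also passed by DESeq2 (2.81, adjusted p = 0.011) and in 1 fit of all 15 libraries (2.79, adjusted p = 0.0231), and COL1A1 in that fit (1.78, adjusted p = 0.0421). From day 11 to day 20 the values were 0.36 (SE 0.84, adjusted p = 0.877) for COL1A1 and 0.72 (SE 1.13, adjusted p = 0.809) for COL1A2, and they became -1.01 and -0.92 without library 6_1. From day 9 to day 11 they were 0.24 (SE 0.206, adjusted p = 0.614) and 1.31 (SE 0.625, adjusted p = 0.35), and COL1A2 passed with the plate number as a block (1.66, adjusted p = 2.5e-05). From day 0 to day 4 they were 0.20 (SE 0.337, adjusted p = 0.923) and 0.20 (SE 0.273, adjusted p = 0.904).

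A type I molecule uses COL1A1 and COL1A2 chains in unequal number, so their ratio is of interest. The TPM ratio of COL1A1 to COL1A2 was 1.22 to 1.59 on day 0, 1.18 to 2.63 on day 9 and 0.558 to 2.35 on day 11. On day 11 the lowest ratio, 0.558, was in library 6 and the highest, 2.35, in library 5, and on day 20 it was 0.761, 1.54 and 0.647. The ratio of COL3A1 to COL1A1 was at most 0.0313 on days 0 and 4, between 0.0382 and 1.68 on day 9, between 0.832 and 5.29 on day 11 and between 3.33 and 9.97 on day 20.

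COL5A1 and COL5A2, chains of the type V collagen that sets the diameter of type I fibres, rose together. COL5A1 measured 36, 21.6 and 36.8 TPM on day 0 and 35.6, 36.8 and 39.3 on day 4. COL5A1 then measured 147, 161 and 236 TPM on day 9, 266, 247 and 391 on day 11 and 425, 202 and 1171 on day 20. COL5A2 measured 54, 69.9 and 50.4 TPM on day 0 and 39.2, 55.5 and 80.3 on day 4. COL5A2 then measured 139, 269 and 153 TPM on day 9, 307, 135 and 399 on day 11 and 448, 265 and 1199 on day 20. For both genes each library of days 9, 11 and 20 lay above each library of days 0 and 4. From day 4 to day 9 the log2 fold change was 2.31 for COL5A1 (SE 0.202, adjusted p = 5.21e-05) and 1.68 for COL5A2 (SE 0.301, adjusted p = 0.00272). Day 20 against day 0 gave 4.08 (SE 0.769, adjusted p = 0.00654) and 3.30 (SE 0.65, adjusted p = 0.00783), and without day 0 library 2 the adjusted p was 0.0519 and 0.0517, and for COL5A2 it was 0.0537 without day 0 library 3. COL5A3, a further chain of type V collagen, went the other way on day 9. It fell from 3.45, 3.73 and 4.51 TPM on day 4 to 0.9, 0.515 and 1 TPM (log2 fold change -2.23, SE 0.295, adjusted p = 0.000438). Its day 20 values of 0.262, 11.1 and 1.53 TPM were led by library 2_3, where its reads lay within 4 times of the silent-gene median.

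COL2A1 (chromosome 12, 47972967 to 48004554, minus strand) encodes type II collagen, best known from cartilage. It measured 15.7, 28.3 and 24.3 TPM on day 0 and 7.12, 7.07 and 26.7 TPM on day 4, then 228, 404 and 702 on day 9, 253, 981 and 165 on day 11 and 1062, 610 and 210 on day 20. The 9 later libraries all lay above the 6 earlier ones, and the gene rose from day 4 to day 9 (log2 fold change 5.05, SE 0.695, adjusted p = 0.000796) and from day 0 to day 20 (4.51, SE 0.659, adjusted p = 0.00254). The cartilage proteoglycan gene ACAN averaged 7.69 TPM on day 4, 2.93 on day 9 and 4.37 on day 20, and the link protein gene HAPLN1 averaged 4.41, 324.8 and 22.8 TPM on these days. The 6 cartilage markers together summed to between 901.6 and 1513 TPM on days 0 and 4, mostly from CNMD, and to between 59.0 and 80.7 TPM on day 20. COL11A2, a chain of the type XI collagen that shares fibrils with type II, measured 10.5, 3.51 and 7.88 TPM on day 0, 10.8, 9.13 and 16 on day 9, 16.7, 96.9 and 16 on day 11 and 242, 80.4 and 47.9 on day 20. It passed only from day 0 to day 20 (log2 fold change 3.87, SE 0.73, adjusted p = 0.00657). The other type XI chain, COL11A1, measured 56.9, 27.7 and 43.4 TPM on day 0 and 33.5, 27.6 and 59.8 on day 4. COL11A1 then measured 19.2, 23.7 and 16.5 TPM on day 9, 20.9, 10.6 and 16.1 on day 11 and 23.6, 17.9 and 109 on day 20. It fell from day 4 to day 9 (log2 fold change -1.01, SE 0.275, adjusted p = 0.018), a call lost without day 9 library 2 (adjusted p = 0.0529) or the unnumbered day 9 library (0.0751). COL27A1, a fibrillar chain of cartilage and other tissues, rose from 11.3, 13.5 and 11.9 TPM on day 4 to 26.2, 19.2 and 21.8 TPM on day 9 (log2 fold change 0.90, SE 0.168, adjusted p = 0.00246). In 1 fit of all 15 libraries the day 4 to day 9 calls of COL1A1 (adjusted p = 0.313), COL5A3 (0.0572), COL11A1 (0.209) and COL24A1 (0.405) were lost, and without the filter on low counts that of COL11A1 (0.0592). COL24A1 measured at most 1.27 TPM outside day 20 library 2_3 and fell from day 4 to day 9 (log2 fold change -0.93, SE 0.239, adjusted p = 0.0118).

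**Figure D3:**
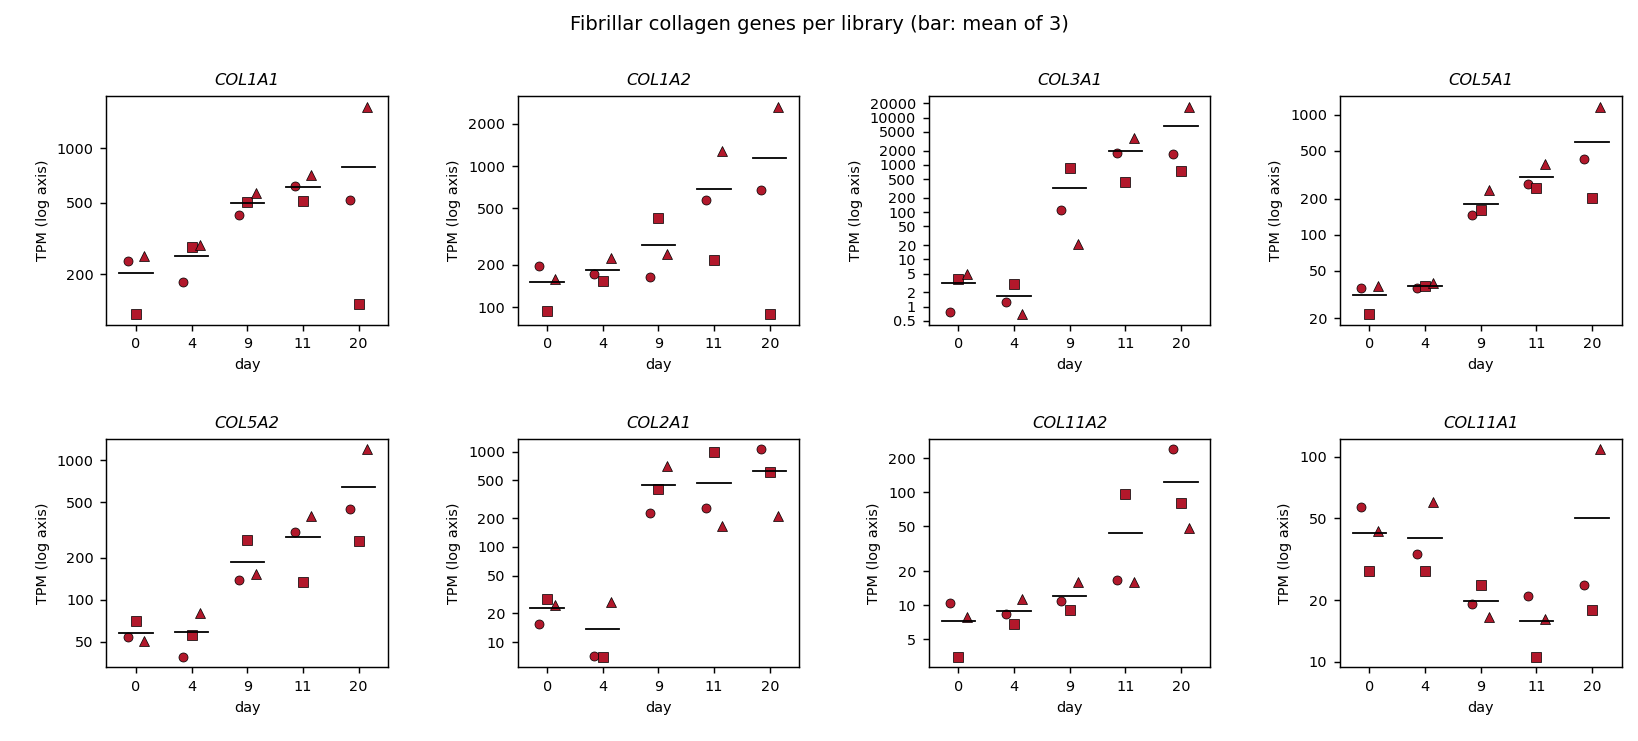
TPM per library (log axis, a separate range in each panel) against day for 8 fibrillar collagen genes, with circles, squares and triangles for the 3 libraries of a day in the order of their labels and bars for their means. COL3A1 and COL2A1 lie above all earlier libraries from day 9 on, and in day 20 library 6_1 (triangle) COL1A1, COL1A2, COL3A1, COL5A1, COL5A2 and COL11A1 are highest while COL2A1 and COL11A2 are lowest.

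Among the basement membrane genes, 5 of 8 rose and 2 of 8 fell from day 4 to day 9, beside the same 24.3% and 24.7% of all genes tested. Their median log2 fold change was 1.02, against 0.01 over all genes tested. The 6 type IV genes stand in head-to-head pairs, COL4A1 with COL4A2, COL4A5 with COL4A6 and COL4A3 with COL4A4, each pair reading outwards from a short shared stretch. These stretches are printed because the pairs share this arrangement while their levels differed. They are plus-strand sequences taken from RefSeq promoter windows (GRCh38.p14), and lie between the starts of the paired genes and outside the exons of GENCODE v44. Capitals mark the CCAAT box (CCAAT or its reverse complement ATTGG) and the GC box (GGGCGG or CCGCCC), searched on both strands along with the TATA box (TATAAA or TTTATA), which none of them holds.
COL4A1 and COL4A2, chr13:110307158-110307257, 126 bases between the starts: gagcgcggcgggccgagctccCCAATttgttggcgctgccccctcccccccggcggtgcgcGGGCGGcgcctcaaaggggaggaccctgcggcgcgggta
COL4A6 and COL4A5, chrX:108439588-108439837, 379 bases between the starts: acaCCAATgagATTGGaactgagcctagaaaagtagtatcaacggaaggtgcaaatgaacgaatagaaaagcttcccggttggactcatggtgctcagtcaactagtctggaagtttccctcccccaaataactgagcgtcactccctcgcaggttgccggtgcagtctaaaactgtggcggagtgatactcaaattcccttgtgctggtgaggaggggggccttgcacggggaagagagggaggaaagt
COL4A4 and COL4A3, chr2:227164454-227164623, 418 bases between the starts: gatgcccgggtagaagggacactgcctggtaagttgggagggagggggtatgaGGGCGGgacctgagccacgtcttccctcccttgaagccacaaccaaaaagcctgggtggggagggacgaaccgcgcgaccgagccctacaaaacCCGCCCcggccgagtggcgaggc
The printed sequences hold 100, 250 and 170 bases, which is a part of each distance between the starts. Within them GC boxes lie in the COL4A1 and COL4A3 stretches and CCAAT boxes in those of COL4A1 and COL4A5. The RefSeq windows of COL4A6, which reach beyond the printed bases, do hold a GC box. Over all 35116 RefSeq promoter windows of 300 bases, 34.6% hold a CCAAT box, 45.0% a GC box and 11.5% a TATA box, against 31.8%, 54.5% and 18.2% of the 44 windows of 32 collagen genes. A match of letters is a description and not a binding site.

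COL4A1 and COL4A2 (chromosome 13, 110148963 to 110307157 and 110305812 to 110513209 in GENCODE v44, whose outermost COL4A2 transcript starts inside COL4A1, while the RefSeq start used above is 110307284), whose chains form the type IV network common to nearly all basement membranes, rose together. COL4A1 measured 165, 203 and 191 TPM on day 0 and 128, 145 and 215 on day 4. COL4A1 then measured 421, 384 and 580 TPM on day 9, 303, 301 and 399 on day 11 and 827, 444 and 639 on day 20. COL4A2 measured 149, 157 and 170 TPM on day 0 and 133, 138 and 203 on day 4. COL4A2 then measured 220, 231 and 366 TPM on day 9, 306, 384 and 352 on day 11 and 1196, 574 and 697 on day 20. Both were already among the more abundant collagen genes in the undifferentiated cells, and both had their highest mean on day 20. From day 4 to day 9 the log2 fold change was 1.54 for COL4A1 (SE 0.25, adjusted p = 0.00143) and 0.81 for COL4A2 (SE 0.254, adjusted p = 0.0291). The COL4A2 call was lost without day 4 library 1 (adjusted p = 0.103) or 2 (adjusted p = 0.113). Day 20 against day 0 gave 1.55 (SE 0.414, adjusted p = 0.0259) and 2.15 (SE 0.448, adjusted p = 0.00985). Leaving out any day 0 library raised the adjusted p to between 0.063 and 0.148 for these genes, and leaving out day 20 library 2 or 6_1 raised that of COL4A1 to 0.0719 or 0.0666. Day 4 against day 0 gave -0.29 (SE 0.218, adjusted p = 0.885) and -0.10 (SE 0.207, adjusted p = 0.932). Day 11 against day 9 gave -0.53 (SE 0.239, adjusted p = 0.323) and 0.29 (SE 0.241, adjusted p = 0.6). Day 20 against day 11 gave 0.84 (SE 0.431, adjusted p = 0.384) and 1.16 (SE 0.455, adjusted p = 0.252). Of the type IV calls from day 4 to day 9, those of COL4A2 (adjusted p = 0.127) and COL4A4 (0.0983) were lost in 1 fit of all 15 libraries, and that of COL4A2 also without the filter on low counts (0.0782) and with the lane as a block (0.0567). Without that filter COL4A1 (0.113) and COL4A5 (0.0713) did not pass from day 0 to day 20, and in 1 fit COL4A2 passed from day 11 to day 20 (0.046). The TPM ratio of COL4A1 to COL4A2 lay between 0.963 and 1.29 on days 0 and 4, between 1.58 and 1.91 on day 9, between 0.784 and 1.13 on day 11 and between 0.691 and 0.917 on day 20. The day 9 ratios overlapped with those of no other day.

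COL4A5 and COL4A6, the X-linked pair found in the basement membranes of smooth muscle and some epithelia, rose to day 9 as well. COL4A5 measured 43.7, 28.8 and 47 TPM on day 0 and 54.5, 50.2 and 56.7 on day 4. COL4A5 then measured 99, 113 and 161 TPM on day 9, 148, 203 and 164 on day 11 and 147, 129 and 163 on day 20. COL4A6 measured 18, 15.7 and 18.8 TPM on day 0 and 23, 27.6 and 24.1 on day 4. COL4A6 then measured 138, 130 and 293 TPM on day 9, 146, 245 and 171 on day 11 and 91.2, 45.1 and 101 on day 20. From day 4 to day 9 the log2 fold change was 1.23 for COL4A5 (SE 0.191, adjusted p = 0.00101) and 2.94 for COL4A6 (SE 0.347, adjusted p = 0.00038). Day 20 against day 0 gave 1.62 (SE 0.358, adjusted p = 0.0124) and 1.98 (SE 0.434, adjusted p = 0.0121), calls that no longer passed without any 1 of the day 0 libraries (adjusted p between 0.0513 and 0.0772). The ratio of COL4A5 to COL4A6 lay between 1.82 and 2.5 on days 0 and 4, between 0.549 and 0.869 on day 9, between 0.826 and 1.02 on day 11 and between 1.61 and 2.86 on day 20. COL4A6 was thus the more abundant of the pair on day 9 in every library and the less abundant on days 0, 4 and 20 in every library.

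COL4A3 and COL4A4, the pair of kidney and lung basement membranes, stayed low. COL4A3 lay between 0.311 and 1.01 TPM on days 0 to 11 and COL4A4 between 0.307 and 2.83 TPM. Their day 20 values of 0.353, 4.36 and 0.271 and 0.83, 4.48 and 0.908 TPM were highest in library 2_3, where both were within 2 times of the silent-gene median. COL4A4 fell from day 4 to day 9 (log2 fold change -1.01, SE 0.288, adjusted p = 0.0184), a call lost without day 4 library 5 (adjusted p = 0.0602), and COL4A3 did not pass in any comparison.

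COL18A1, which encodes the basement membrane collagen from which endostatin is cut, was the most abundant gene of the class over all libraries. It measured 255, 296 and 289 TPM on day 0 and 203, 247 and 343 on day 4. COL18A1 then measured 572, 665 and 979 TPM on day 9, 678, 858 and 493 on day 11 and 756, 361 and 440 on day 20. It rose from day 4 to day 9 (log2 fold change 1.51, SE 0.263, adjusted p = 0.00204) and passed from day 0 to day 20 only without library 2_3 (0.67, SE 0.426, adjusted p = 0.287 with it, 0.96 and adjusted p = 0.0386 without). The other comparisons gave -0.18 from day 0 to day 4 (SE 0.213, adjusted p = 0.895), -0.19 from day 9 to day 11 (SE 0.279, adjusted p = 0.792) and -0.46 from day 11 to day 20 (SE 0.47, adjusted p = 0.688). Exons of SLC19A1 on the opposite strand cover 18.5% of its exon bases. The kit was stranded, but how the counting used strand is not given in the sources used here, so reads of the pair may not be told apart. COL15A1, its close relative in the heart and in muscle, measured at most 0.853 TPM in each library of days 0 to 9, 1.95, 13.8 and 1.87 TPM on day 11 and 7.92, 8.78 and 44.2 TPM on day 20. It rose from day 0 to day 20 (log2 fold change 4.99, SE 0.873, adjusted p = 0.00491), and every day 11 library lay above every day 9 library (3.90, SE 0.88, adjusted p = 0.0738). Its day 9 values of 0.335, 0.385 and 0.386 TPM were lower than the day 4 values of 0.853, 0.757 and 0.512 TPM (log2 fold change -0.92, SE 0.31, adjusted p = 0.0366), a call lost without any 1 library of these days except day 4 library 5 (adjusted p between 0.0668 and 0.125), and also by DESeq2 (0.105), in 1 fit of all 15 libraries (0.452), without the filter on low counts (0.0678), by limma (0.0693 and 0.073) and with the lane as a block (0.063).

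**Figure D4:**
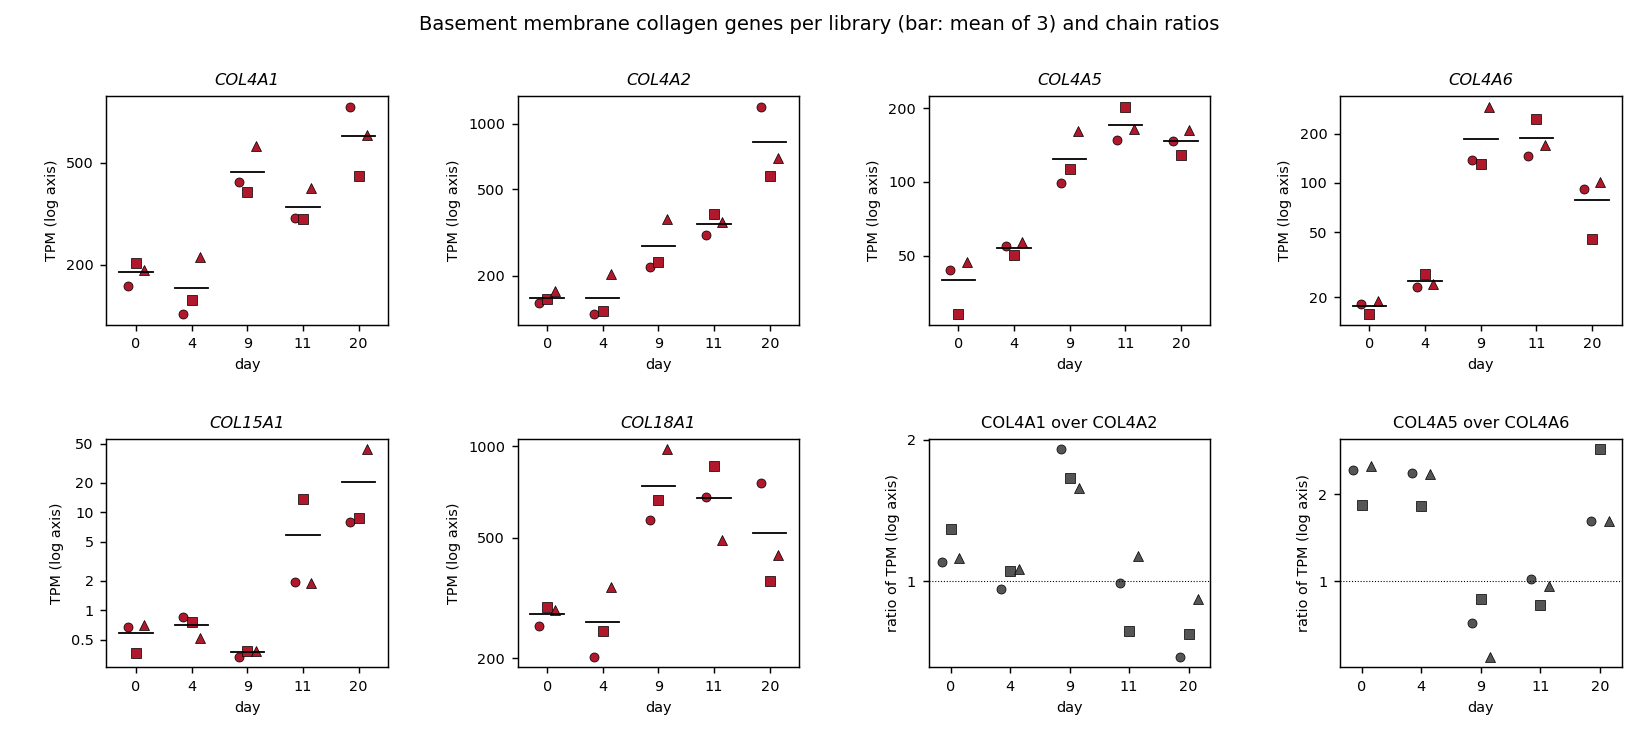
TPM per library (log axis, a separate range in each panel) against day for 6 basement membrane collagen genes, and the ratio of TPM between the chains of both abundant type IV pairs (grey, dotted line at 1), with circles, squares and triangles for the 3 libraries of a day in the order of their labels and bars for means. The ratio of COL4A1 to COL4A2 is highest on day 9 (1.58 to 1.91), when that of COL4A5 to COL4A6 is lowest (0.549 to 0.869).

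Of the 24 other genes tested from day 4 to day 9, 9 rose and 7 fell, beside 24.3% and 24.7% of all genes tested. Their median log2 fold change was -0.09, against 0.01 over all genes tested. The beaded filament genes COL6A1 and COL6A2, chains of the type VI collagen that surrounds most cells including heart muscle, rose. COL6A1 measured 350.0 ± 128.2 TPM on day 0 (SD, n = 3) and 462, 532 and 602 on day 4. COL6A1 then measured 631, 1144 and 925 TPM on day 9, 1191, 1390 and 1032 on day 11 and 417, 308 and 978 on day 20. COL6A2 measured 283, 133 and 197 TPM on day 0 and 239, 301 and 351 on day 4. COL6A2 then measured 517, 863 and 831 TPM on day 9, 1083, 1084 and 815 on day 11 and 374, 159 and 1226 on day 20. From day 4 to day 9 the log2 fold change was 0.76 for COL6A1 (SE 0.193, adjusted p = 0.0109) and 1.32 for COL6A2 (SE 0.209, adjusted p = 0.0011), and both calls were lost in 1 fit of all 15 libraries (0.247 and 0.123). COL6A3, the long chain that type VI collagen also needs, was far lower at first, at 3.19, 2.87 and 2.91 TPM on day 0 and 2.31, 5.04 and 5.9 on day 4. It measured 9.43, 73.9 and 4.64 on day 9, 95.4, 31.8 and 132 on day 11 and 50.4, 13.5 and 288 on day 20. It passed from day 0 to day 20 (log2 fold change 5.17, SE 1.12, adjusted p = 0.0113, and 0.0749 and 0.0541 without day 0 library 2 and 3). Its day 4 and day 9 libraries overlapped (2.67, SE 0.972, adjusted p = 0.056). The TPM ratio of COL6A1 to COL6A3 was between 77 and 200 on days 0 and 4, between 15.5 and 199 on day 9, between 7.8 and 43.8 on day 11 and between 3.4 and 22.8 on day 20. COL6A6, a chain that can take the place of COL6A3, rose from 0.957, 1.09 and 0.534 TPM on day 4 to 19.8, 13.3 and 32.3 TPM on day 9 (log2 fold change 4.70, SE 0.435, adjusted p = 0.000123). It measured 10.3, 4.44 and 5.78 on day 11 and 1.11, 6.43 and 7 on day 20. Its change from day 0 to day 20 passed (2.49, SE 0.762, adjusted p = 0.0428) although the libraries overlapped, and was lost without any 1 library other than day 20 library 2 (adjusted p between 0.0555 and 0.139), with upper-quartile scaling (0.055) or by limma (0.0687 and 0.0666). COL6A5 held 3 counts over the day 0 libraries, 6 over day 4 and 64 over day 9, and was too low for the test in 3 comparisons.

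Among the fibril-decorating genes, COL9A2 passed in the most comparisons of adjacent days. COL9A2, a chain of type IX collagen (chromosome 1, 40300489 to 40317813, minus strand), measured 10.9, 2.26 and 7.82 TPM on day 0 and 16.8, 25.4 and 12.1 on day 4. COL9A2 then measured 193, 157 and 330 TPM on day 9, 46.2, 59.6 and 68.8 on day 11 and 17.5, 9.95 and 6.49 on day 20. It rose from day 4 to day 9 (log2 fold change 3.68, SE 0.394, adjusted p = 0.000241). It then fell from day 9 to day 11 (-2.03, SE 0.321, adjusted p = 0.0272) and again from day 11 to day 20 (-2.48, SE 0.422, adjusted p = 0.0371). All 3 changes came with the libraries of each pair of days apart, which already fixes the same direction in all 3 lanes. These comparisons share the libraries of days 9 and 11. The day 9 to day 11 call was lost without any 1 of 5 libraries (adjusted p between 0.0634 and 0.126), all but day 9 library 6_1. The day 11 to day 20 call was lost without any 1 of 5 (between 0.0582 and 0.174), all but day 20 library 2. It was also lost with the lane (adjusted p = 0.0549) or the plate (0.133) as a block, and the day 9 to day 11 call in 1 fit of all 15 libraries (0.0644). COL9A3, which joins COL9A1 and COL9A2 in the same molecule, measured 107, 104 and 110 TPM on day 0, 70.2, 93.9 and 136 on day 9, 48, 62.6 and 99.9 on day 11 and 17.3, 12.6 and 28.1 on day 20. It was lower on day 20 than on day 0 (log2 fold change -2.68, SE 0.424, adjusted p = 0.0034). The TPM ratio of COL9A3 to COL9A2 was between 4.63 and 46 on days 0 and 4 and between 0.363 and 0.597 on day 9. COL9A1 fell from 22.8, 18.9 and 24.6 TPM on day 4 to 6.48, 4.95 and 14.4 TPM on day 9 (log2 fold change -1.31, SE 0.386, adjusted p = 0.0243), a call lost without day 4 library 1 or 5 or day 9 library 2 (adjusted p between 0.0667 and 0.104), in 1 fit of all 15 libraries (0.0944) or without the filter on low counts (0.164).

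COL19A1, a rare collagen known from basement membrane zones of muscle and brain, had few reads before day 9. It held 3, 4 and 0 counts in the day 0 libraries and 0, 2 and 0 in the day 4 libraries, and 976, 551 and 2130 counts on day 9. The counts per library total were 2225 times higher on day 9 than on day 4 (95% exact binomial interval 615 to 18377, for counting error only), and the test passed (adjusted p = 4.21e-05). Its TPM was 23.2, 11.9 and 33.9 on day 9, 7.55, 19.7 and 1.91 on day 11 and 5.05, 5.18 and 1.69 on day 20, and it was higher on day 20 than on day 0 (log2 fold change 6.29, SE 0.792, adjusted p = 0.0014). In day 20 library 2_3 its reads were within 2 times of the silent-gene median. COL14A1, found on mature fibrils of skin and tendon, fell from 92.3, 89.3 and 85.3 TPM on day 4 to 7.54, 14.5 and 21.4 on day 9 (log2 fold change -2.60, SE 0.332, adjusted p = 0.000556). It measured 64.7, 31.3 and 29.5 on day 11 and 51.2, 110 and 116 on day 20. COL22A1, a collagen of tissue junctions such as that of muscle and tendon, measured 8.42, 5.96 and 7.18 TPM on day 4, 18.4, 36 and 9.97 on day 9, 41.1, 156 and 46.7 on day 11 and 279, 163 and 76 on day 20. It rose from day 4 to day 9 (log2 fold change 1.56, SE 0.39, adjusted p = 0.0124, and 0.0562 without day 4 library 2, 0.0747 in 1 fit of all 15 libraries and 0.107 without the filter on low counts) and from day 0 to day 20 (4.76, SE 0.627, adjusted p = 0.00168). COL16A1 fell from 16.5, 17.4 and 15.6 to 5.59, 3.12 and 9.22 TPM from day 4 to day 9 (log2 fold change -1.42, SE 0.365, adjusted p = 0.0141, and 0.0634 without day 9 library 2 and 0.121 without the filter on low counts). COL12A1, a collagen of tissues under tension, was higher on day 20, at 11.8, 9.85 and 23.6 TPM, than on day 0, at 3.78, 5.92 and 2.99 TPM (log2 fold change 1.65, SE 0.462, adjusted p = 0.0311), a call lost without any 1 day 0 library or day 20 library 6_1 (between 0.0699 and 0.161) or without the filter on low counts (0.0776). COL20A1 fell from day 4 to day 9 (log2 fold change -2.29, SE 0.414, adjusted p = 0.00229) at no more than 2.63 TPM outside day 20 library 2_3. COL21A1 did not pass in any pair of days, and on day 20 it measured 10, 15.1 and 185 TPM, the last value from library 6_1.

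The membrane-spanning collagens followed separate courses. COL23A1 rose from 19.4, 23 and 27 TPM on day 4 to 79.4, 86.7 and 165 on day 9 (log2 fold change 2.28, SE 0.307, adjusted p = 0.000708). It measured 95.6, 83.4 and 89.3 on day 11 and 60.8, 47.1 and 73.8 on day 20. It was higher on day 20 than on day 0 (1.69, SE 0.342, adjusted p = 0.00863, and 0.0551 and 0.0715 without day 0 library 2 and 3). COL25A1, known from nerve and muscle development, measured 7.02, 5.98 and 5.5 TPM on day 0 and 3.9, 5.88 and 7.97 on day 4. COL25A1 then measured 24.4, 28.7 and 37.8 TPM on day 9, 14, 12.3 and 11.6 on day 11 and 42.1, 21.1 and 22.6 on day 20. It rose from day 4 to day 9 (log2 fold change 2.39, SE 0.278, adjusted p = 0.000332) and fell from day 9 to day 11 (-1.31, SE 0.188, adjusted p = 0.0208), with the libraries of each pair of days apart. The fall was lost without day 9 library 2 or the unnumbered one, or day 11 library 2 or 6 (adjusted p between 0.0578 and 0.102), and in 1 fit of all 15 libraries (0.0621). It was higher on day 20 than on day 0 (2.00, SE 0.386, adjusted p = 0.00709, and 0.05 and 0.0579 without day 0 library 2 and 3). In the edgeR test of day 20 against day 11, COL17A1, a hemidesmosome protein that anchors epithelia, was the only collagen gene called higher. The log2 fold change was positive for 30 of the 43 collagen genes tested, and DESeq2 called 6 higher. COL17A1 measured 1.48, 1.38 and 0.882 TPM on day 0 and 2.05, 1.88 and 1.39 on day 4. COL17A1 then measured 0.788, 0.57 and 0.505 TPM on day 9, 0.637, 0.599 and 0.447 on day 11 and 3.11, 9.48 and 6.74 on day 20. The log2 fold change was -1.5 from day 4 to day 9 (SE 0.292, adjusted p = 0.00305), 3.33 from day 11 to day 20 (SE 0.485, adjusted p = 0.0248) and 2.07 from day 0 to day 20 (SE 0.447, adjusted p = 0.011). The highest value came from library 2_3, where its reads were within 4 times of the silent-gene median, and without it the day 11 to day 20 value was 3.15 with an adjusted p of 0.0285. That call was lost without any 1 day 11 library (adjusted p between 0.11 and 0.177), by limma on log2(TPM + 1) (0.071) or log2(TPM + 0.1) (0.0544), and with the plate (0.12) or lane (0.0671) as a block, and the one from day 0 to day 20 without day 0 library 1 or 3 (0.0517 and 0.0678). COL13A1 did not pass in any comparison, at 27.9, 93.9 and 40.1 TPM on day 11, its highest day.

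Of the remaining genes, COL26A1 had its highest mean on day 0. It measured 117, 213 and 139 TPM on day 0 and 104, 189 and 161 on day 4. COL26A1 then measured 90.6, 104 and 199 TPM on day 9, 74.7, 89 and 88.8 on day 11 and 34.1, 8.56 and 40.9 on day 20. It was lower on day 20 than on day 0 (log2 fold change -2.65, SE 0.634, adjusted p = 0.017, and 0.075 and 0.0568 without day 0 library 2 and 3). The short-chain genes COL8A1 and COL8A2, chains of the type VIII collagen of vessel walls and the cornea, differed in course. COL8A1 rose from 0.077, 0.107 and 0.207 TPM on day 4 to 0.99, 0.759 and 1.71 on day 9 (log2 fold change 3.21, SE 0.478, adjusted p = 0.000816). It reached 14.1, 6.31 and 10.3 TPM on day 20, 5.76 above day 0 on the log2 scale (SE 0.714, adjusted p = 0.00131). COL8A2 fell from 12.9, 17.4 and 18.8 TPM on day 4 to 2.82, 2.16 and 2.64 on day 9 (log2 fold change -2.66, SE 0.219, adjusted p = 3.86e-05). It measured 2.01, 1.65 and 3.28 on day 11 and 7.83, 8.84 and 95.4 on day 20, with library 6_1 above all 14 others. COL7A1, the collagen of the fibrils that anchor skin, fell from 22.8, 26.7 and 25.1 TPM on day 4 to 11, 10.6 and 11.4 on day 9 (log2 fold change -1.16, SE 0.119, adjusted p = 0.000123). COL10A1, the collagen of growth plate cartilage, lay between 1.28 and 4.12 TPM outside day 20 library 2_3 and did not pass in any comparison. COL28A1 measured at most 0.710 TPM outside that library and did not pass either.

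The genes that modify, fold, cut and link collagen chains were counted in the same way. From day 4 to day 9, 1 of 13 genes of hydroxylation and glycosylation rose and 1 fell, 2 of 7 folding and secretion genes rose and 1 fell. In the same comparison 1 of 8 genes of propeptide processing rose and 3 fell, and 1 of 6 crosslinking genes rose, where 24.3% of all genes tested rose and 24.7% fell. P4HB, a subunit of prolyl hydroxylase and the most abundant of its list at a mean of 368.2 TPM, was among those that fell (log2 fold change -0.60, SE 0.217, adjusted p = 0.049), and COLGALT2, which adds galactose, rose (0.82, SE 0.292, adjusted p = 0.0483). SERPINH1, the collagen chaperone HSP47 and the most abundant folding gene, averaged between 497.5 TPM on day 20 and 862.9 TPM on day 9 and did not pass in any comparison. The propeptide processing genes that fell were ADAMTS14 (-2.54, SE 0.17), TLL1 (-2.92, SE 0.356) and TLL2 (-2.69, SE 0.309), and PCOLCE, an enhancer of propeptide cleavage, rose (0.75, SE 0.158). On day 20, against day 0, 2 of 14 genes of hydroxylation and glycosylation were higher and 1 lower, and 0 of 7 folding and secretion genes passed. In that comparison 1 of 8 genes of propeptide processing was higher and 1 lower, and 2 of 6 crosslinking genes were higher. Over all genes tested 16.1% were higher and 11.3% lower. The lysyl oxidase genes LOX (3.99, SE 0.698, adjusted p = 0.00489) and LOXL4 (3.47, SE 0.584, adjusted p = 0.00422), which crosslink collagen, were higher. So were the propeptide protease BMP1 (1.91, SE 0.486, adjusted p = 0.0215), the lysyl hydroxylase PLOD1 (1.5, SE 0.427, adjusted p = 0.0327) and COLGALT2 (2.06, SE 0.354, adjusted p = 0.00463). P3H2 (-1.52, SE 0.423) and PCOLCE2 (-1.59, SE 0.415) were lower. LOX averaged 3.49 TPM on day 0, 1.78 on day 9, 10.1 on day 11 and 62.0 on day 20, where its libraries measured 57.6, 18.8 and 110 TPM. No gene of these lists, of the receptors or of the collagenases passed from day 9 to day 11 or from day 11 to day 20.

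Of the collagen receptors, 3 of 9 were higher and 5 of 9 lower on day 9 than on day 4, where 24.3% of all genes tested were higher and 24.7% lower. DDR2, the receptor kinase of fibroblasts that binds fibrillar collagen, rose (log2 fold change 2.12, SE 0.674, adjusted p = 0.0328), while DDR1, its relative in epithelia, fell (-1.51, SE 0.309, adjusted p = 0.00507). The integrin chain ITGA11, which binds type I collagen on fibroblasts, rose (1.85, SE 0.556, adjusted p = 0.0265), and ITGA1 (-1.94, SE 0.359, adjusted p = 0.00323) and ITGA2 (-1.87, SE 0.344, adjusted p = 0.00308) fell. MRC2, which takes up cleaved collagen and was the most abundant receptor, rose as well (1.76, SE 0.322, adjusted p = 0.00309). On day 20 DDR2 measured 3.54, 8.55 and 80.1 TPM, with library 6_1 highest as for COL3A1. Of the collagenases, MMP2 rose from 14.5 TPM on day 4 to 209.8 TPM on day 9 in the mean (log2 fold change 3.88, SE 0.365, adjusted p = 0.000132) and MMP9 fell (-1.96, SE 0.268, adjusted p = 0.000521). MMP14, the membrane collagenase with the highest mean of its list, did not pass in any comparison. MMP1 measured 0.0732, 0 and 0 TPM on day 0 and 8.83, 6.21 and 27.0 TPM on day 20, a difference that passed (adjusted p = 0.00207).

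The spread between the replicates of days 11 and 20 was described for collagen genes beside all genes. Among genes with a mean of at least 5 TPM, the highest library of day 11 was at the median 2.18 times the lowest for 33 collagen genes and 1.43 times for all 14742 genes, and over 4 times for 27.3% against 5.80%. On day 20 the medians were 3.11 for 34 collagen genes and 2.01 for 17320 genes, and 44.1% against 20.5% lay over 4 times. The 9 fibrillar genes had medians of 2.97 on day 11 and of 5.81 on day 20, and 8 of 9 lay over 4 times on day 20, the exception being COL27A1 at 1.34. The 6 basement membrane genes had medians of 1.52 and 2.09. On days 0, 4 and 9 the collagen medians were 1.76, 1.46 and 2.07 against 1.57, 1.24 and 1.35, so day 9 was close to day 11. These are descriptions of the 3 libraries of each day, without a test.

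The spread was ordered in the same way for groups of genes. On day 11, library 6 was highest and library 5 lowest for COL1A2, COL3A1, COL5A2 and COL6A3, and library 5 was highest for COL2A1, COL11A2, COL22A1 and 5 of 6 basement membrane genes. COL2A1 was 981 TPM in library 5 and 165 in library 6, where COL3A1 was 423 and 3745. Beside this, the summed TPM of 8 fibroblast and mesenchymal markers was 463.5, 123.1 and 1687 in libraries 2, 5 and 6, and that of 6 cardiomyocyte markers 3461, 12760 and 2085. On day 20, library 6_1 was highest for 21 of 34 collagen genes, among them COL1A1, COL1A2, COL3A1, COL5A1, COL5A2 and COL6A3, and library 2 for COL2A1, COL11A2, COL22A1, COL4A1, COL4A2 and COL18A1. The fibroblast and mesenchymal marker sum was 293.0, 295.3 and 3163 and the cardiomyocyte sum 14930, 11650 and 2953. Of the 8 markers of the first list LUM was the most abundant, at 206, 206 and 2272 TPM on day 20, DCN measured 8.57, 16.3 and 353, and POSTN 32.1, 26.5 and 388. TWIST1 (6.81, 14.7 and 11.0 TPM) and PRRX1 (0.43, 5.07 and 3.87 TPM) were highest in library 2_3 instead. On day 11 LUM alone measured 345, 52.8 and 1569 TPM. Without LUM the sums of the other 7 markers were 118.4, 70.2 and 118.2 TPM on day 11, where library 6 no longer led, and 86.6, 89 and 890.1 TPM on day 20. The 5 endothelial markers summed to 105.9, 165.7 and 81.3 TPM on day 11, with CDH5 at 9.65, 52.5 and 1.44 and PECAM1 at 1.16, 12.7 and 0.618, so library 5 was highest for them too. On day 20 their sums were 29.8, 38.8 and 149.3 TPM, highest in library 6_1 and lowest in library 2. On both days the library with the highest sum of the 8 fibroblast and mesenchymal markers was thus the one with the most COL3A1. On those days the library with the most cardiomyocyte marker RNA was the one with the most COL2A1, COL11A2 and COL22A1. The match with COL3A1 was not particular to these 8 markers. The 7 endoderm and yolk sac markers summed to 2077, 1252 and 2581 TPM on day 11 and 17320, 681.5 and 20370 on day 20. These sums were highest in the libraries with the most COL3A1 as well. The 5 epicardial markers summed to 58.4, 10.3 and 33.9 TPM on day 11, highest in library 2. On day 20 they summed to 27.3, 51.45 and 111.9 TPM, highest in library 6_1. On day 9 the cardiomyocyte sums were 54.7, 113.1 and 63.8 TPM, highest in library 6_1. COL22A1 was highest there too, while COL2A1 and COL11A2 were highest in the unnumbered library. With 3 libraries a day, the part of cell makeup in these patterns was not tested. Library 2_3 was lowest for 21 of 34 genes. The matching counts over all genes are not given here, so these orders of libraries cannot be read as particular to collagen genes. Besides its low RNA integrity, library 2_3 had 681.5 TPM of 7 endoderm and yolk sac markers where the other day 20 libraries had 17320 and 20370.

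**Figure D5:**
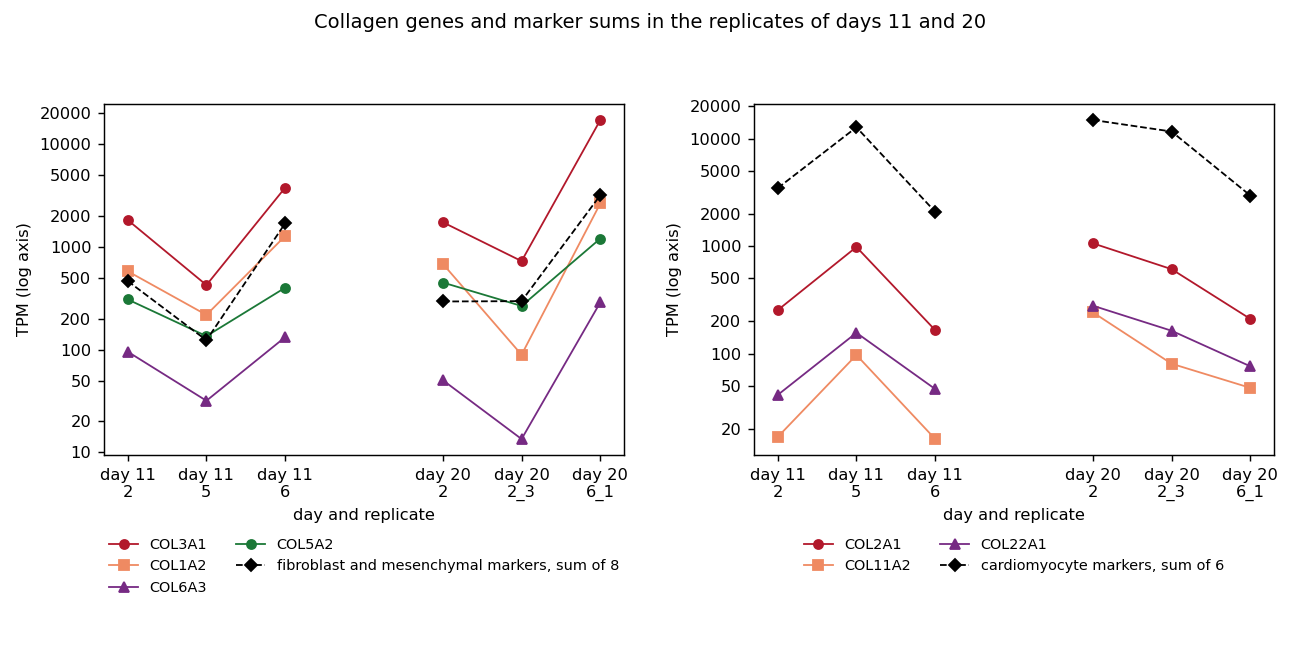
TPM (log axis) in the 3 libraries of day 11 and the 3 of day 20, for COL3A1, COL1A2, COL6A3 and COL5A2 with the summed fibroblast and mesenchymal markers (left, dashed) and for COL2A1, COL11A2 and COL22A1 with the summed cardiomyocyte markers (right, dashed). Lines join libraries of a day only to guide the eye. On the left the top library is 6 on day 11 and 6_1 on day 20, and on the right it is 5 on day 11 and 2 on day 20.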

How the data were processed

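RNA of 15 libraries was sequenced as stranded bulk RNA-seq. Per the labels and the study's methods, the authors aligned reads with STAR 2.5.2b to hg38 and the authors' deposited counts were made with featureCounts 1.5.1 on Ensembl release 79, with the strand setting not given in the sources used here. By the study's methods, ribosomal and mitochondrial genes were removed and TPM was computed from the counts. The deposited TPM values divide by gene length and were used for levels. The deposited sample table gave the RNA integrity score, the unique mapping rate as a fraction and the sequencing lane. Genes and overlaps were read from GENCODE 44 and promoter sequences from RefSeq (GRCh38.p14), which held 32 of the 44 genes.

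Counts were compared between pairs of days (3 libraries each) with edgeR 4.0.16 (R 4.3.3, limma 3.58.1): TMM scaling, genes kept by filterByExpr (count 10, total 15), and robust two-sided quasi-likelihood tests. The p-values were adjusted by Benjamini and Hochberg across every gene in the comparison and called under 0.05. The script was tested on simulated data. Alternatives were DESeq2 1.42.0, other scalings and filters, one fit of all 15 libraries, limma on log2(TPM + 1) and log2(TPM + 0.1), lane or plate blocks, and leaving out each library. Figures and summaries used Python 3.11.15, pandas 2.3.3, scipy 1.17.1 and matplotlib 3.10.9. The genes described are the 44 members, with library values for the 12 highest by mean and for those past the threshold with at least 5 TPM on the higher day, and further members were described after their values were seen. The members and lists were chosen with earlier results of these data known.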

Additional observations from a re-analysis of the deposited data

How the results depend on the processing

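Between days 4 and 9, 20 collagen genes were higher and 12 lower, against 15 and 6 with all 15 libraries in one fit (2939 and 3270 of all genes, against 5162 and 5244), and leaving out single libraries gave 19 to 21 higher and 8 to 12 lower. From day 9 to day 11 there were 0 higher and 2 lower (288 and 207 of all genes), against 5 and 5 by DESeq2 (919 and 676). All 15 libraries in one fit gave 1 and 0 (320 and 112), and the sequencing lane as a block 2 and 4 (425 and 273). Without single libraries the ranges were 0 to 1 and 0 to 3. From day 11 to day 20 there were 1 higher and 1 lower (239 and 93 of all genes), against 6 and 2 by DESeq2 (1454 and 591). Upper-quartile scaling gave 2 higher (196), all 15 libraries in one fit 11 and 4 (2078 and 1054), and the lane block 0 and 0 (102 and 35). By limma there were 0 and 2 on log2(TPM + 1) (183 and 119) and on log2(TPM + 0.1) (222 and 118). Without single libraries the ranges were 0 to 2 and 0 to 1. From day 0 to day 20 leaving out single libraries gave 8 to 24 higher and 1 to 4 lower, and in the test over all days 32 to 41. From day 0 to day 4 it gave 0 to 0. Counts over all genes without single libraries are not given here, so these ranges cannot be read as particular to collagen genes. The log2 fold change of COL1A1 from day 11 to day 20 was -0.289 by limma on log2(TPM + 1), -0.291 on log2(TPM + 0.1) and -0.386 with the lane block. Leaving out single libraries gave -1.01 to 0.882 for it, -0.924 to 1.54 for COL1A2 and -0.867 to 2.55 for COL3A1, all lowest without day 20 library 6_1. For day 4 against day 0, it gave -0.0984 to 0.547 for COL1A1 and -0.0636 to 0.393 for COL1A2, lowest without day 0 library 2, and -0.309 to 0.0916 for COL4A2, highest without day 0 library 3. For day 11 against day 9, it gave -0.378 to 0.0772 for COL18A1, highest without the unnumbered day 9 library. Except where a library was left out, the cause of these changes was not tested. Of the values for single genes under the alternatives, 1041 kept direction and side of the threshold, 105 lost a call, 9 gained one and 11 changed sign.

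Libraries that share a plate number had correlations of their deviations of 0.139 and 0.356 for days 9 and 11, and of -0.179, 0.00371 and 0.378 for days 11 and 20. Pairs not known to share a plate lay between -0.383 and 0.346, and between -0.467 and 0.224. The highest value of both comparisons was that of plate 6, and plate 2 did not stand out. Whether the plates pair the libraries is thus not settled by these values. With the plate as a replicate block, 9 collagen genes were higher and 6 lower from day 9 to day 11, among them COL1A2 (1.66, adjusted p = 2.5e-05), where 1171 and 800 of all genes were, against 288 and 207 without the block. From day 11 to day 20 the block gave 0 and 0 collagen genes, and 2 and 1 of all genes, and COL1A1 was -0.0963 in the latter. Another scaling shifted the median of all genes by over 0.1 only from day 11 to day 20 (upper quartile, 0.114) and from day 0 to day 20 (no scaling, 0.123).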
